A study of Bos taurus with 28 samples.

Results

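Expression of 7 macrophage marker genes was followed in subcutaneous adipose tissue (AT) of dairy cows from late pregnancy into early lactation. The members were the 7 of 24616 listed genes whose Ensembl IDs the study's supplementary count matrix pairs with the symbols CD68, MSR1, GPNMB and LGALS3, taken as lipid-associated markers, and CX3CR1, FCGR3A and CD300A, taken as other myeloid markers. They were chosen by symbol with their read counts after calving against those before calving already known, so these 2 comparisons, and that of PP2 with PP1, which uses the same libraries, are given for the members as a description without a test. The 28 libraries came from 11 multiparous, healthy Holstein cows, and each was made from 1 flank biopsy. There were 9 libraries before calving (PreP, day -11), 10 at the first sampling after calving (PP1, day 6) and 9 at the second (PP2, day 13), and 8 cows had all 3. Which of the 2 samplings after calving a library belongs to rests on its label alone. No experimental treatment was compared. Day relative to calving, the end of pregnancy, the onset of lactation and the diet, which was switched from a close-up to a fresh cow ration at calving, changed together and cannot be told apart, and each biopsy site lay a few centimetres from the last.

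Macrophages of AT take up debris, dying adipocytes and the lipid that adipocytes release. In several species, macrophages that have taken up much lipid form a recognizable state with high expression of lysosomal, scavenger receptor and lipid-handling genes. CD68 encodes a glycoprotein of late endosomes and lysosomes and is a general marker of macrophages, MSR1 a scavenger receptor for modified lipoproteins, GPNMB a transmembrane glycoprotein induced under lysosomal load, and LGALS3 the sugar-binding lectin galectin-3, which other cell types of AT can also make. CX3CR1 is the receptor of fractalkine and marks subsets of monocytes, tissue macrophages and lymphocytes. FCGR3A is a receptor for the constant part of IgG and is shared by macrophages, monocytes and natural killer (NK) cells. CD300A is an inhibitory receptor found on many leukocytes.

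Values are CPM, read counts scaled to a common library size with TMM factors. Library totals ran from 15293154 to 22284884 reads with a median of 19088705. A count of 3 reads in a library corresponded to 0.127 to 0.2 CPM, whereas the members had 25 to 14320 reads per library, and none was at 0 in any library. Of 15 listed adipocyte genes 2 had an ID, PPARG and PCK1. Their summed level was between 172 and 427 CPM at PreP, 61.6 and 421 CPM at PP1 and 22.0 (cow B4886) and 198 CPM at PP2. PCK1 itself differed between PreP and PP2, so this sum is no independent check of the labelled tissue. Libraries of cows B5169, B5090 and B5102 stood apart from their groups. In the PP1 library of cow B5169 all 7 members lay within the range of the PreP libraries, where the other PP1 libraries had between 0 and 2 such members, and its adipocyte sum of 421 CPM was the highest of PP1 with the next at 252 CPM. The PreP library of the same cow differed the other way. All 7 members were above the PreP median in it, and 3 were at their PreP maximum. All 7 were also above that median in the PreP library of cow B5064. In the PreP library of cow B5169 PCK1, at 17.4 CPM, was at its PreP minimum, whereas the PP1 library of that cow had the PP1 maximum of 196 CPM. For the members and PCK1, both libraries of cow B5169 thus went against their labels in the direction of the other. The summed levels of cell division and fibroblast genes did so in its PP1 library only, where they were 15.9 and 1529 CPM, the lowest of PP1. In its PreP library they were 11.3 and 2461 CPM. Their PreP medians were 19.2 and 2461 CPM and their PP1 medians 54.5 and 4135 CPM. The labels were kept, and the cause was not tested. Fold changes of the members against PreP without this cow are given with those of all cows. In the PP2 library of cow B5090 all 7 members were below the PP2 median, and the summed level of 5 skeletal muscle genes was 9236 CPM against at most 32.5 CPM in the other PP2 libraries. The PP1 library of cow B5102 had the PP1 maximum of GPNMB, 733 CPM with the next at 313 CPM. It also had the PP1 minimum of CX3CR1 and of CD300A. In bulk tissue, a change in the number of cells of a type and a change in RNA per cell cannot be told apart.

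CD68 (ENSBTAG00000000133) had the largest fold change of the 7 genes at PP1 and PP2 against PreP, whereas the mean of GPNMB differed by more in CPM at PP1. Its level ran from 17.6 CPM in cow B5102 over a median of 40.9 to 101 CPM in cow B5169 at PreP. At PP1 it ran from 30.6 CPM in cow B5169 over a median of 218 to 354 CPM in cow B5079. PP1 libraries of 9 of 10 cows were above the highest PreP library, and the remaining one was that of cow B5169. The lowest of the 9, that of cow B4987, was level with the highest PreP library at 101 CPM (6.66 against 6.65 on the log2 scale). Of all genes tested, 0.78% had at least 9 PP1 libraries above the PreP range. At PP2 CD68 ran from 38.8 CPM in cow B5090 over a median of 109 to 257 CPM in cow B4886, and 6 of 9 libraries were above the PreP range, as were at least 6 in 2.93% of all genes tested. Both shares are background only, since the members were chosen with these comparisons known. For the other counts of libraries above or below the PreP range given below, the share over all genes was not computed. Nothing is read from those counts. Means of PreP, PP1 and PP2 were 48.8 ± 26.9, 213 ± 93.5 and 135 ± 77.6 CPM (SD, n = 9, 10 and 9).

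MSR1 (ENSBTAG00000002885), the scavenger receptor, had a similar fold change at PP1 and a smaller one at PP2. It ran from 6.96 CPM in cow B5102 over a median of 17.5 to 28.7 CPM in cow B5064 at PreP, and from 14.5 CPM in cow B5169 over a median of 75.2 to 95.0 CPM in cow B5054 at PP1. All PP1 libraries except that of cow B5169 were at or above 46.2 CPM, so that 9 of 10 lay above the PreP range. The PP2 libraries fell into a wide range, from 8.93 CPM in cow B5090 over a median of 35.0 to 69.0 CPM in cow B5129. The lowest 3 of these, in cows B5090, B5064 (10.3 CPM) and B4886 (10.7 CPM), lay within the PreP range, whereas the other 6 were above it. Means were 18.0 ± 6.71, 67.2 ± 24.5 and 33.0 ± 20.5 CPM (SD, n = 9, 10 and 9).

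GPNMB (ENSBTAG00000000604) was high at PP1 and back in the PreP range by its median at PP2. It ran from 46.3 CPM in cow B5090 over a median of 86.8 to 129 CPM in cow B4987 at PreP. At PP1 the lowest library was that of cow B5169 with 64.3 CPM, the median was 239 CPM, and the highest was that of cow B5102 with 733 CPM, while the next was cow B5079 with 313 CPM. At PP2 it ran from 32.4 CPM in cow B5165 over a median of 83.5 to 279 CPM, again in cow B5102. There, 3 of 9 libraries were above the highest PreP library and 2 of 9 were below the lowest. Means were 93.8 ± 26.7, 263 ± 181 and 113 ± 81.7 CPM (SD, n = 9, 10 and 9).

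LGALS3 (ENSBTAG00000002326), the gene of galectin-3, overlapped most between time points among the lipid-associated markers. Its PreP libraries ran from 146 CPM in cow B5102 over a median of 207 to 300.1 CPM in cow B5169. The PP1 libraries ran from 98.5 CPM in cow B4987 over a median of 306 to 719 CPM in cow B5165, with 687 CPM in cow B5079. Only 5 of 10 were above the PreP range. The PP2 libraries ran from 48.7 CPM in cow B5090 over a median of 213 to 292 CPM in cow B4886, and 0 of 9 were above the PreP range. Means were 207 ± 51.3, 359 ± 202 and 203 ± 73.3 CPM (SD, n = 9, 10 and 9).

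CX3CR1 (ENSBTAG00000002923), the fractalkine receptor, had wide and overlapping ranges at all 3 time points. It ran from 2.81 CPM in cow B5176 over a median of 6.9 to 13.9 CPM in cow B5064 at PreP, from 3.99 CPM in cow B5102 over a median of 10.1 to 18.5 CPM in cow B4886 at PP1, and from 2.15 CPM in cow B5064 over a median of 8.25 to 11.3 CPM in cow B4987 at PP2. At PP1 the libraries fell into 4 between 3.99 and 4.78 CPM and 6 between 10 and 18.5 CPM. Means were 7.47 ± 3.86, 10.3 ± 5.83 and 7.97 ± 3.14 CPM (SD, n = 9, 10 and 9).

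FCGR3A (ENSBTAG00000002096), the IgG receptor, was the most even gene before calving, with a lowest level of 27.3 CPM in cow B5129, a median of 31.7 and a highest of 38.7 CPM in cow B5165. At PP1 it ran from 30.6 CPM in cow B5169 over a median of 47.9 to 64.7 CPM in cow B4886, and 8 of 10 libraries were above the PreP range. At PP2 the spread was wider than at either earlier time point, from 13.9 CPM in cow B5064 over a median of 27.5 to 68.7 CPM in cow B5129, with 3 of 9 libraries above the PreP range and 4 of 9 below it. The coefficient of variation was 12.3% at PreP, 21.7% at PP1 and 55.4% at PP2. Means were 32.8 ± 4.03, 48.9 ± 10.6 and 35.6 ± 19.7 CPM (SD, n = 9, 10 and 9).

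CD300A (ENSBTAG00000000812), the inhibitory receptor, had the fewest reads of the 7 genes. It ran from 2.1 CPM in cow B5102 over a median of 3.14 to 4.49 CPM in cow B5169 at PreP, and from 1.93 CPM in cow B5102 over a median of 7.08 to 12.1 CPM in cow B4886 at PP1. There, 8 of 10 libraries were above the PreP range, and cows B5102 and B5169 (2.51 CPM) were not. PP2 libraries formed 2 separate ranges, with 5 between 1.67 and 3.54 CPM and 4 between 8.75 and 10.9 CPM, the latter from cows B4886, B4987, B5129 and B5165. Means were 3.14 ± 0.791, 6.9 ± 3.3 and 6.0 ± 3.97 CPM (SD, n = 9, 10 and 9).

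**Figure D1:**
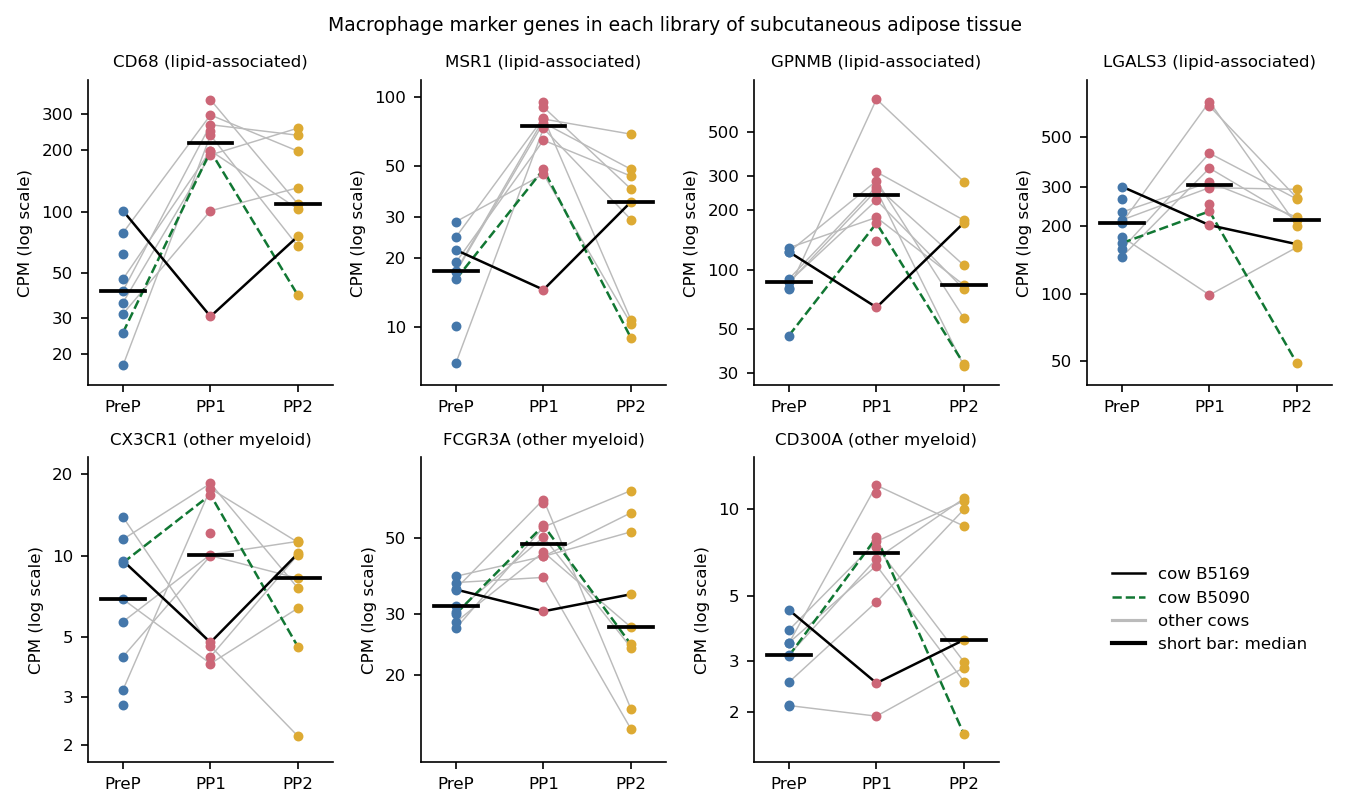
Level of each gene in each library (points, CPM on a log axis) at PreP, PP1 and PP2, with lines joining the libraries of a cow and a short bar at the median. CD68, MSR1 and GPNMB have 9 of 10 PP1 points above every PreP point, the exception being cow B5169 (black line), whereas the 3 ranges of CX3CR1 overlap.

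Each pair of time points was fitted in edgeR over all genes, and a gene counted as differentially expressed (DEG) where its false discovery rate (FDR, Benjamini-Hochberg) was below 0.05 and its log2 fold change above 1 in either direction. At PP1 against PreP the log2 fold change was 2.12 ± 0.362 (SE) for CD68, 1.90 ± 0.284 for MSR1, 1.49 ± 0.312 for GPNMB and 0.79 ± 0.278 for LGALS3. The other myeloid markers differed by 1.14 ± 0.287 for CD300A, 0.58 ± 0.13 for FCGR3A and 0.46 ± 0.356 for CX3CR1. CD68, MSR1, GPNMB and CD300A met the criteria of a DEG, 4 of 7 members, where 4.03% of the 18467 genes tested did (3.34% as higher). The members were chosen with this comparison in view, so which of them met the criteria is a description, here and under every other setting, and nothing is read from the count. With a block for cow the values of these 4 genes were 2.12 ± 0.483, 1.64 ± 0.352, 1.31 ± 0.359 and 0.79 ± 0.287, and 0 of 7 members met the criteria, where 58 genes in all did against 744 without the block. Nothing is read from that count either. Without the PP1 library of cow B5169 the values were 2.25, 2.02, 1.60 and 1.23, and all 4 met the criteria. Without cow B5169 altogether they were 2.46, 2.05, 1.66 and 1.31, and the same 4 met them, while LGALS3 was at 0.94, FCGR3A at 0.65 and CX3CR1 at 0.60. CD300A did not meet them without cow B4886, B5054, B5064, B5090 or B5129, with all time points in 1 fit (1.14) or with the cows sampled at both time points alone (0.93).

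At PP2 against PreP CD68 differed by 1.48 ± 0.365 and was the 1 member of 7 that met the criteria, where 5.47% of the 18558 genes tested did (3.52% as higher). With a block for cow, where 409 genes in all met them, CD68 was at 1.5 ± 0.345 and among these, and it was not without cow B4886, B4987 or B5129. CD300A differed by 0.93 ± 0.362 and MSR1 by 0.88 ± 0.368. GPNMB (0.30 ± 0.362), FCGR3A (0.12 ± 0.266), CX3CR1 (0.10 ± 0.348) and LGALS3 (-0.01 ± 0.256) were within about 1 SE of 0, and the sign of these 4 genes turned under other settings. Without cow B5169 CD68 was at 1.76, CD300A at 1.07, MSR1 at 0.88, GPNMB at 0.22, FCGR3A at 0.13, LGALS3 at 0.09 and CX3CR1 at 0.08, and CD68 was again the 1 member that met the criteria. The PreP libraries were shared by both comparisons.

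PP2 was then set against PP1. The libraries of both time points entered the comparisons with PreP that were known when the members were chosen, so these values are a description as well. The log2 fold change was -1.03 ± 0.372 for MSR1, -1.22 ± 0.422 for GPNMB, -0.84 ± 0.329 for LGALS3 and -0.68 ± 0.363 for CD68. It was -0.37 ± 0.35 for CX3CR1, -0.47 ± 0.269 for FCGR3A and -0.23 ± 0.392 for CD300A, and 0 of 7 members met the criteria. In edgeR, 0 of 18518 genes met the criteria of a DEG between PP1 and PP2, and 1037 genes had an unadjusted p under 0.05, 5.6% of those tested. DESeq2 and limma voom called 0 genes as well, and the edgeR likelihood ratio test called 160 genes, 0 of them members.

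**Figure D2:**
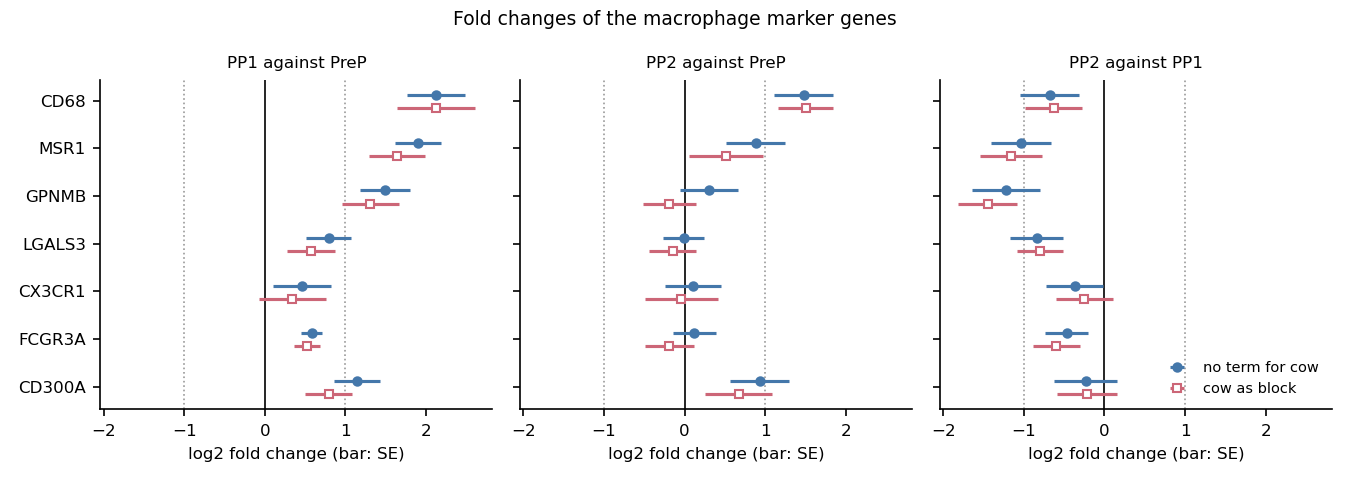
Log2 fold change with its SE for each gene in the 3 comparisons, without a term for cow (filled circles) and with cow as a block (open squares), with dotted lines at the fold change threshold of 1 in either direction. CD68 is the gene furthest to the right at PP1 (2.12) and PP2 (1.48), and all 7 values of PP2 against PP1 lie left of 0.

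Within cows, CD68, MSR1, GPNMB and FCGR3A were higher at PP1 than at PreP in 7 of 8 cows, LGALS3 and CD300A in 6 of 8 and CX3CR1 in 5 of 8. Among all genes tested, 12.3% were higher in at least 7 of 8 cows. Cow B5169, both of whose libraries stood apart, was lower for all 7 genes, from -0.21 for FCGR3A to -1.71 for CD68 on the log2 CPM scale. In cow B5102 the lipid-associated genes CD68, MSR1 and GPNMB had their largest within-cow difference, at 3.75, 3.38 and 3.2, while CD300A and CX3CR1 were lower at PP1 in that cow.

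At PP2 the cows split. CD68 was higher than at PreP in 7 of 8 cows, where 7.5% of all genes tested were higher in at least 7. MSR1 and CD300A were higher in 5 of 8, CX3CR1 in 4, GPNMB and LGALS3 in 3 and FCGR3A in 2. In cow B4886 CD68 was 2.84 higher on the log2 CPM scale, the largest difference of CD68 at PP2, while MSR1, GPNMB, CX3CR1 and FCGR3A were lower than at PreP in that cow. In cow B5165 CD68 was higher and GPNMB 1.41 lower. From PP1 to PP2, MSR1, GPNMB and LGALS3 were lower in 8 of 9 cows, where 1.78% of all genes tested were lower in at least 8. That share is background only, since the members were chosen with their PP1 values known. CD68 was lower in 6 of 9, CX3CR1 and FCGR3A in 5 and CD300A in 4. Whether the genes differed from each other in this count was not tested.

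**Figure D3:**
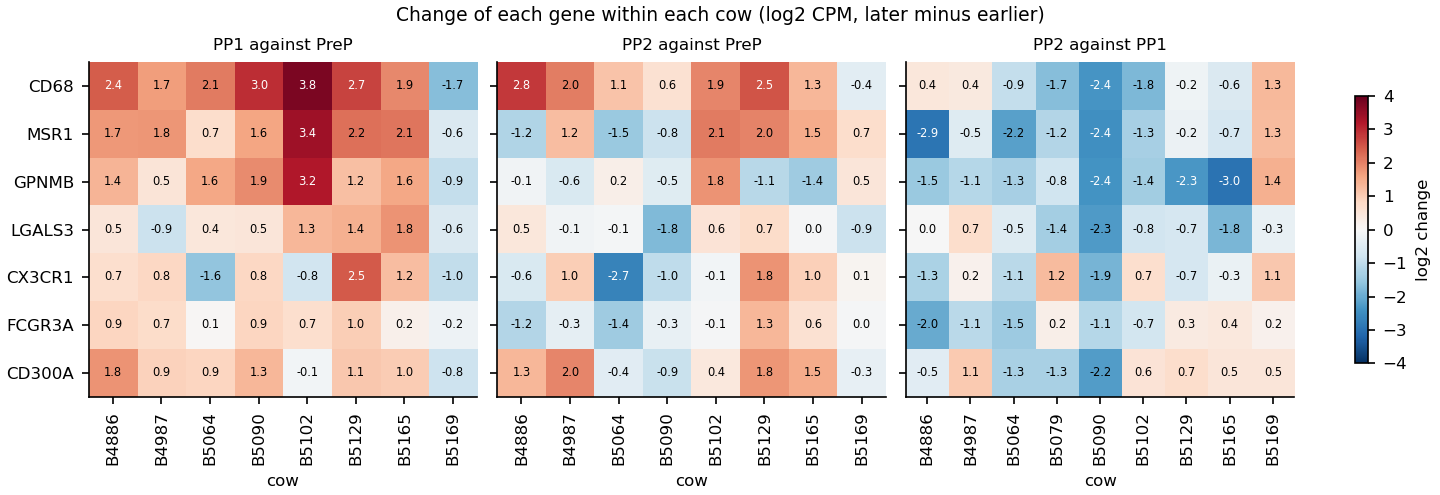
Within-cow difference of each gene (log2 CPM, later minus earlier, red higher and blue lower) for the cows with both libraries, 8, 8 and 9 in the 3 panels. The column of cow B5169 is blue for all 7 genes at PP1 against PreP, and at PP2 against PreP the rows of MSR1 and GPNMB hold both colours.

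The lipid-associated and the other myeloid markers were set side by side. The median log2 fold change of the 4 lipid-associated genes was 1.69 at PP1, 0.59 at PP2 and -0.94 at PP2 against PP1, while that of the 3 other genes was 0.58, 0.12 and -0.37. The medians of all genes tested were 0.04, 0.1 and 0.03. The 2 kinds overlapped at PP1, since CD300A (1.14) was above LGALS3 (0.79). In each library the mean log2 CPM of the 4 genes minus that of the 3 genes was taken and set to 0 at the PreP median. This difference had a median of 0.33 at PP1, from -0.23 in cow B5169 to 2.2 in cow B5102, with 6 of 10 libraries above 0. At PP2 the median was 0.12, from -0.75 in cow B5090 to 1.04 in cow B5064, with 5 of 9 above 0, and the PreP libraries spanned -0.86 to 0.39.

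Relative to CD68, every other member was lower by its median after calving than at PreP. For LGALS3 the median log2 ratio to CD68, with PreP at 0, was -1.65 at PP1 and -1.98 at PP2, and it was below 0 in 9 of 10 and 9 of 9 libraries. For CX3CR1 it was -1.68 and -1.07, for FCGR3A -1.82 and -1.41, and for CD300A -1.10 and -0.82. MSR1 stayed nearest to CD68, at -0.50 and -0.56, although its ratio in the PP2 library of cow B4886 was -3.36, where CD68 was at 257 CPM and MSR1 at 10.7 CPM. GPNMB had ratios of -0.78 and -1.17, from -3.55 in cow B5165 to 1.1 in cow B5102 at PP2. These ratios restate the same libraries on another scale and are a description, with CD68 chosen as the reference after its values were known.

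To describe which members went together among cows, the mean of each time point was removed from log2 CPM and Pearson's r was taken over the 28 libraries, which share cows and sequencing depth. The highest values were between MSR1 and FCGR3A (r = 0.74), CD68 and LGALS3 (r = 0.70) and CD68 and CD300A (r = 0.65). The 6 pairs of lipid-associated genes had a median r of 0.40 (range 0.27 to 0.70), the 3 pairs of other genes 0.54 (0.42 to 0.56) and the 12 pairs between the kinds 0.24 (-0.22 to 0.74). GPNMB went least with the rest, with r = -0.22 with CD300A, -0.09 with CX3CR1 and -0.05 with FCGR3A. The sign of these 3 values turned when single cows were left out, with ranges of -0.44 to 0.05, -0.29 to 0.06 and -0.22 to 0.12. Its r with CD68 was 0.27, or 0.02 without cow B5169, and within time points it was 0.39 at PreP, 0.72 at PP1 and -0.22 at PP2.

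**Figure D4:**
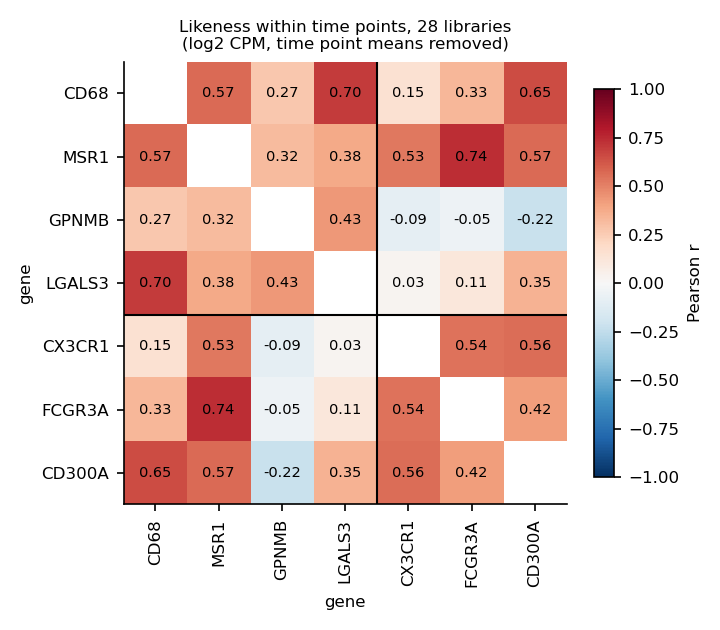
Pearson's r between members over 28 libraries after removal of time point means, with lines separating the 4 lipid-associated from the 3 other genes. The strongest colours include a pair across the line (MSR1 and FCGR3A, 0.74), and GPNMB is at -0.22 to -0.05 with the 3 genes beyond the line, values whose sign turned when single cows were left out.

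Each member was also compared in this way with the 1481 genes that had a symbol and a mean of at least 1 CPM. The 5 most alike are named, with the other members left out. For CD68 they were SLAMF7, a receptor of leukocytes (r = 0.85), CSTB, an inhibitor of lysosomal cathepsins (r = 0.82), FAM20A (r = 0.81), HCLS1, an actin regulator of blood cells (r = 0.81), and TRPV2, a cation channel found in macrophages (r = 0.80). For MSR1 they were CD200R1L (r = 0.85), VSTM1 (r = 0.84) and, each at 0.79, FBN1, ABRACL and WIPF1. FBN1 encodes fibrillin-1 of the extracellular matrix. LGALS3 had TRPV2 (r = 0.75), SLC22A15 (r = 0.64), CMTM4 and PDGFRL (both r = 0.63) and EMX2 (r = 0.60). The most alike genes of GPNMB had lower values, from PHACTR4 (r = 0.64) over C7H19orf44 (r = 0.62), PDGFRL (r = 0.61) and CCSAP (r = 0.60) to SPP2 (r = 0.59). With single cows left out, the lowest r was 0.38 (SPP2) to 0.51 (CCSAP) for these genes. For those of LGALS3 it was 0.42 (SLC22A15) to 0.68 (TRPV2).

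For CX3CR1 the most alike genes were NLRP3, the sensor of an inflammasome (r = 0.77), LYVE1, a marker of a subset of resident macrophages and of lymphatic vessels (r = 0.76), DOCK8 (r = 0.76), CD244, a receptor of NK and T cells (r = 0.76), and ADAMTS1 (r = 0.73). FCGR3A had NLRP3 and SNX10 (both r = 0.78), SESTD1 (r = 0.77), BMP2K and OCIAD2 (both r = 0.76). CD300A had PILRA, another inhibitory receptor of myeloid cells (r = 0.84), GFPT2 (r = 0.83), MKI67, which is expressed by dividing cells (r = 0.79), STING1 (r = 0.79) and SASH3 (r = 0.78). TRPV2, PDGFRL and NLRP3 stood in 2 lists each, which left 32 genes.

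These 32 genes were chosen on the same libraries as the members. Time point means were removed first, but cows that differed in the size of the members' change still differed afterwards, so the comparisons of these genes are not independent of the choice and are given as a description. At PP1 12 of the 32 rose as DEGs and 0 fell, where 3.86% of the genes with a symbol and at least 1 CPM rose. All 5 genes most like CD68 were among them, with SLAMF7 at a log2 fold change of 1.8 ± 0.291, TRPV2 at 1.30 ± 0.25 and CSTB at 1.02 ± 0.236. Of the 5 most like MSR1 and the 5 most like CD300A, 3 each rose, including CD200R1L at 1.75 ± 0.274. Of the 5 most like GPNMB 1 rose, SPP2 at 3.14 ± 0.887, which rested on the PP1 library of cow B5102 with 217 CPM against at most 17.0 CPM in the other PP1 libraries, and without that cow SPP2 was at 1.05 and did not meet the criteria. CSTB met them in 5 of 11 fits without a cow and SPP2 in 3. Of the 5 most like LGALS3 1 rose, TRPV2, which it shared with CD68. Of the genes most like CX3CR1 and FCGR3A, 0 of 5 each rose, although 3 and 4 of them had an unadjusted p under 0.05 in edgeR, with NLRP3 at 0.98 ± 0.301 and LYVE1 at 0.44 ± 0.408. With a block for cow 1 of the 32 genes passed, CD200R1L at 1.56.

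At PP2 7 of the 32 rose and 0 fell, where 4.39% of the genes with a symbol and at least 1 CPM rose. They included FAM20A (1.31 ± 0.295), HCLS1 (1.26 ± 0.288) and SLAMF7 (1.26 ± 0.369) of the genes most like CD68. The genes most like CD300A gave the same count, 3 of 5, with STING1 at 1.31 ± 0.323, MKI67 at 2.59 ± 0.689 and SASH3 at 1.01 ± 0.29. ADAMTS1 (1.26 ± 0.365) was the 1 of 5 most like CX3CR1, and 0 of the 5 most like MSR1, GPNMB, LGALS3 or FCGR3A rose. The count was 0 without cow B5129, between 2 and 4 without cow B4886, B4987, B5165, B5176 or B5102, 4 with total counts as the scaling and 1 with a block for cow. Between PP1 and PP2, 0 of the 32 met the criteria by edgeR, DESeq2 or voom, and 1 had an unadjusted p under 0.05 in edgeR.

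Companion genes were taken from 18 lists of 286 symbols, of which 57 had an ID in the copy of the study's table of IDs and symbols used here. That copy was shortened and ends early in the order of Ensembl IDs, so that the other listed symbols were not analysed here. It covers 0 of 23 genes listed for the lipid-associated macrophage program, 0 of 13 for monocytes, 0 of 10 for dendritic cells and 1 of 36 for macrophages in general, LYVE1. Its level ran from 15.5 to 100 CPM at PreP, from 17.2 to 198 CPM at PP1 and from 12.7 to 84.2 CPM at PP2. In the lysosome list, to which CD68 is linked by the place of its protein, 11 of 38 genes had an ID. At PP1 or PP2, 0 of these 11 met the criteria by edgeR, DESeq2 or voom. In edgeR 2 of them at PP1 and 3 at PP2 had an unadjusted p under 0.05. The highest of these at PP1 was TCIRG1, a subunit of the proton pump, at 0.61 ± 0.18 (FDR = 0.0479), below the threshold on the fold change, while the members of this list with the highest levels, IGF2R, ATP6V1G1 and GUSB, were at -0.34 ± 0.168, 0.07 ± 0.128 and 0.32 ± 0.16 (FDR = 0.216, 0.766 and 0.213). Without the PP1 library of cow B5169, TCIRG1 was at 0.69 (FDR = 0.0039) and CTNS at 0.58 (FDR = 0.022) at PP1, both below the threshold on the fold change. The list had a median log2 fold change of 0.16 at PP1 and 0.14 at PP2, and its summed level was 454 to 697 CPM at PreP, 506 to 682 CPM at PP1 and 477 to 656 CPM at PP2.

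Among receptors related to FCGR3A and CD300A, PILRA was the 1 gene with an ID, and it rose at PP1 (1.23 ± 0.229, FDR = 0.00444) and was at 1.04 ± 0.37 (FDR = 0.0962) at PP2. DESeq2 called PILRA at PP2 as well and voom did not, and in edgeR it met the criteria there without the PP2 library of cow B5090 (1.15, FDR = 0.0469). In the list of inflammatory mediators 0 of 7 met the criteria in edgeR at either time point, 5 and 1 had an unadjusted p under 0.05, and DESeq2 and voom called 1 each at PP1. In edgeR at PP1, MYD88, an adaptor of Toll-like receptors, was at 0.40 ± 0.145 (FDR = 0.0943), IL18 at 1.15 ± 0.415 (FDR = 0.0943) and IL1B at 0.27 ± 0.491 (FDR = 0.781). Without the PP1 library of cow B5169, 2 of the 7 met the criteria at PP1, IL18 at 1.27 (FDR = 0.0262) and NLRP3 at 1.07 (FDR = 0.0114). Of 3 genes of monocyte recruitment 0 met them by edgeR, DESeq2 or voom, 1 had an unadjusted p under 0.05 at PP1, and CSF1, the growth factor of macrophages, was at -0.14 ± 0.291 (FDR = 0.813) at PP1 while CXCR4, a chemokine receptor, was at 0.69 ± 0.215 (FDR = 0.0568). Of the cell division genes 5 of 6 rose at PP1 in edgeR, DESeq2 and voom, while at PP2 4 of 6 rose in edgeR, 5 in DESeq2 and 0 in voom. MKI67 was at 2.55 ± 0.507 (FDR = 0.00682) and AURKB, a mitotic kinase, at 2.37 ± 0.362 (FDR = 0.00249) at PP1. DLGAP5 (2.89), UHRF1 (2.16) and CLSPN (1.92) also rose at PP1, and MKI67 (2.59), AURKB (2.25), DLGAP5 (3.04) and UHRF1 (2.06) at PP2. These calls at PP1 held in 11 of 11 fits without a cow, while at PP2 MKI67 met the criteria in 5 of 10 such fits, UHRF1 in 7, DLGAP5 in 3 and AURKB in 10. With a block for cow the companion genes that passed were LUM at PP1 and PCK1 at PP2.

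Genes of other cells that the biopsies could hold moved with the time points as well, and their part in the members' values was not tested. LUM and PI16, markers of fibroblasts and their progenitors, rose at PP1 (2.33 ± 0.364, FDR = 0.00249, and 1.86 ± 0.434, FDR = 0.0149) and at PP2 (2.18 and 2.11), and the other 3 genes of their list did not meet the criteria. At PP2 PI16 met them in 6 of 10 fits without a cow, and voom called 1 of the 2 genes. The summed level of that list was 1401 to 3255 CPM at PreP, 1529 to 6722 CPM at PP1 and 1467 to 5402 CPM at PP2. PCK1, an adipocyte enzyme of glyceroneogenesis, was at -1.75 ± 0.73 (FDR = 0.142) at PP1 and fell at PP2 by 2.96 on the log2 scale (FDR = 0.00238). Without the PP1 library of cow B5169, PCK1 was at -2.83 at PP1 and met the criteria (FDR = 0.00325). The T and NK cell list, which matters for FCGR3A and CX3CR1, had 0 of 5 DEGs at either time point by edgeR, DESeq2 or voom, 2 genes with an unadjusted p under 0.05 at PP1 and 0 at PP2, and a summed level of 3.57 to 15.2 CPM at PreP, 4.84 to 16.7 CPM at PP1 and 4.93 to 43.5 CPM at PP2. The highest of these was the PP2 library of cow B5165, with the next at 16.8 CPM, and FCGR3A was at 59.2 CPM there. Neutrophil genes were low, with a sum of 0.576 to 2.53 CPM at PreP, 1.57 to 7.94 CPM at PP1 and 1.64 to 6.28 CPM at PP2, and CD177 had no read at PreP. At both PP1 and PP2, 3 of these 4 genes had an unadjusted p under 0.05. At PP1 0 of 4 met the criteria in edgeR and 1 in DESeq2, and without the PP1 library of cow B5169 LTF (1.01, FDR = 0.0456) and PGLYRP1 (1.71, FDR = 0.0232) met them in edgeR. PGLYRP1 rose at PP2 (1.84 ± 0.519, FDR = 0.0382) and met the criteria in 2 of 10 fits without a cow.

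The 5 muscle genes PYGM, MYOZ2, LMOD2, SRL and CKMT2 rose at PP2, and 0 of 5 met the criteria without the library of cow B5090. The members without that library had log2 fold changes at PP2 of 1.61 for CD68, 1.0 for MSR1, 0.42 for GPNMB, 0.12 for LGALS3, 0.18 for CX3CR1, 0.18 for FCGR3A and 1.06 for CD300A. CD68 was again the 1 member that met the criteria. In B cell (2), mast cell (1), endothelial (2) and erythrocyte (2) lists, counted by genes with an ID, 0 genes met them at PP1 or PP2 by edgeR, DESeq2 or voom, and 2 of these 7 genes had an unadjusted p under 0.05 at PP1 and 1 at PP2.

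**Figure D5:**
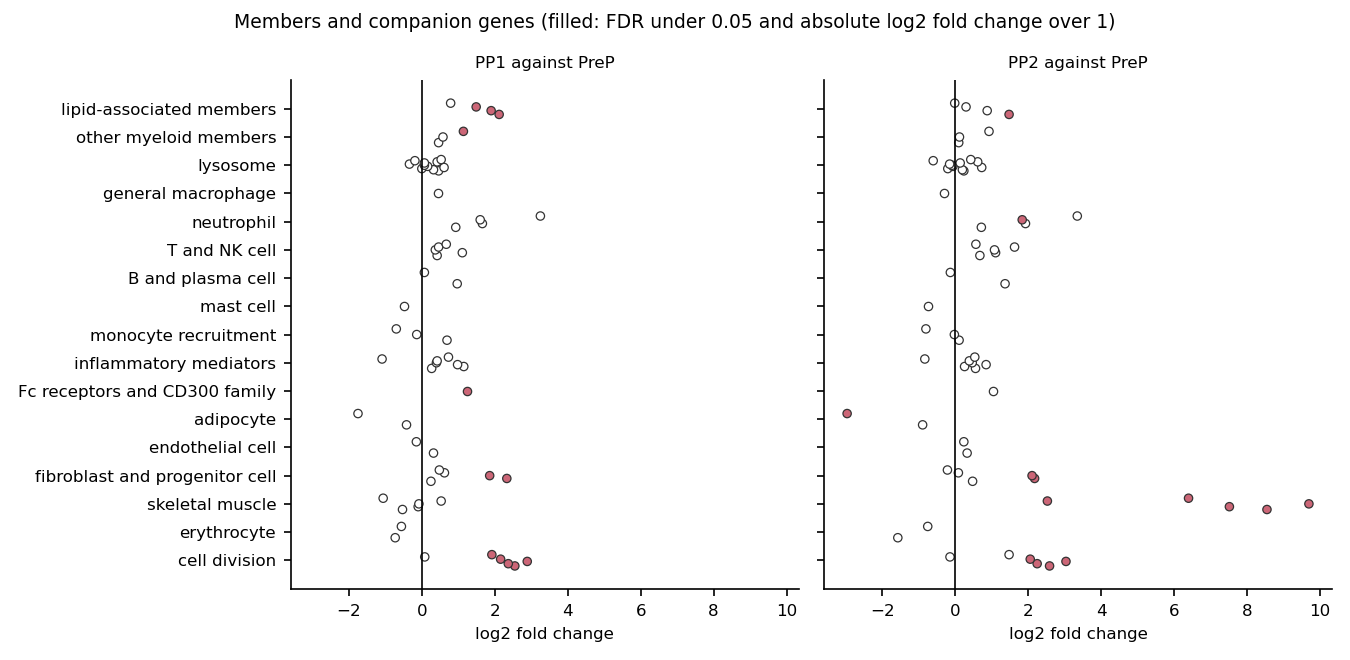
Log2 fold change of the members and of the companion genes with an ID, 1 point per gene and 1 row per list, at PP1 (left) and PP2 (right) against PreP, where filled points met the criteria of a DEG. Filled points stand in the rows of cell division and of fibroblasts and progenitors in both panels, the lysosome row holds none, and the 5 muscle points far to the right at PP2 rest on the library of cow B5090.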

How the data were processed

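Subcutaneous AT of 11 cows was sequenced in 28 libraries. Per the labels and the paper's methods, the authors filtered the reads, aligned them to the bosTau7 genome with HISAT2 2.1.0 and obtained 1 count per Ensembl gene from HTSeq 0.6.1. The deposited values are raw read counts. The strand setting, the annotation release and the treatment of multi-mapped reads are not given in the sources used here. All columns were used and 0 were left out. Symbols came from a copy of the study's supplementary count matrix that holds 1995 IDs, 1863 of them with a usable symbol. Genomic sequence and coordinates of the members were not used here.

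Counts were analysed in R 4.3.3 with edgeR 4.0.16. A gene was tested where any library of the 2 time points held 3 or more of its reads. The libraries of 2 time points at a time entered a TMM-scaled quasi-likelihood fit that ignored cow. FDR is the Benjamini-Hochberg adjusted p over all genes tested. The SE of a log2 fold change was derived as its absolute value divided by the square root of the quasi-likelihood F. Each cow gave 1 biopsy per time point, so p-values measure the spread between cows and biopsies together. Log2 CPM used a prior count of 1. The members, lists and tests were chosen with earlier results of these data known. Named genes are the members, DEGs of the lists (for lists without any, those with the highest mean CPM) and the 5 most alike genes of each member, other members left out. IL1B, TCIRG1, CTNS, LTF and CD177 were named after their values were seen. Libraries with the same cow number come from the same animal, so cow as a block is a paired fit. Alternatives were filterByExpr or no filter, RLE size factors, total counts, DESeq2 1.42.0, voom with quality weights from limma 3.58.1, the likelihood ratio test, 1 fit of all time points, the block, paired cows only, each cow or library left out and no fold threshold. The script was tested on simulated data.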

Additional observations from a re-analysis of the deposited data

Results flagged for a closer look

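Dixon's test was run on log2 CPM of each member within each time point, and at 95% it singled out the lowest library in 4 of the 21 groups of libraries (7 genes at 3 time points), where chance singles out about 1 in 20, or 1.05. Over the 13644 genes with a mean of at least 1 CPM, 8.97% of such groups had a library singled out at either end, and 4.04% the lowest one. The PP1 library of cow B5169 was singled out in 5.48% of genes, that of cow B5102 in 4.33% and the PP2 library of cow B5090 in 4.1%. The count over the members was not tested against these shares. The PP1 library of cow B5169 was low for CD68, at 30.6 CPM with the nearest at 101 CPM and a median of 218 CPM, and for MSR1, at 14.5 CPM with the nearest at 46.2 CPM and a median of 75.2 CPM. The PreP library of cow B5090 was low for GPNMB, at 46.3 CPM with the nearest at 79.5 CPM. The PP2 library of cow B5090 was low for LGALS3, at 48.7 CPM with the nearest at 161 CPM and a median of 213 CPM.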

How the results depend on the processing

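Members that met the criteria at PP1 numbered 0 with a block for cow, against 4 without it, and 3 to 4 when a cow or library was left out, where CD300A met them in 6 of 11 fits without a cow. CD300A did not meet them with all time points in 1 fit or with paired cows either. At PP2 the count was 2 with voom, where MSR1 was added to CD68, and 0 to 1 with a cow or library left out. Of the companion genes, 8 met the criteria at PP1, 5 with all time points in 1 fit, 1 with the block and 7 to 13 with a cow or library left out, the highest without the PP1 library of cow B5169. At PP2 13 met them, 8 with filterByExpr, 2 with voom, 1 with the block and 6 to 14 with a cow or library left out. Between PP1 and PP2 the likelihood ratio test and the fit of all time points called 4 companion genes each. Over all genes at PP1, the count of 744 became 1562 with voom, 320 with all time points in 1 fit, 58 with the block, 411 with paired cows, 1168 without the fold threshold and 296 to 1748 with a cow or library left out. At PP2 the count of 1015 became 409 with the block and 460 to 1334 with a cow or library left out, and between PP1 and PP2 it was 160 by the likelihood ratio test, 176 with all time points in 1 fit and 1 with the block. Signs turned at PP2 against PreP for GPNMB (-0.19 with the block, -0.01 to 0.45 without a cow or library), LGALS3 (0.07 with voom, -0.1 to 0.12), CX3CR1 (-0.04 with the block, -0.07 with paired cows, -0.06 to 0.4) and FCGR3A (-0.19 with the block, -0.08 to 0.26), and without a cow for the r of CX3CR1 with CD68 (-0.01 to 0.22), of GPNMB with CD300A (-0.44 to 0.05), CX3CR1 (-0.29 to 0.06) and FCGR3A (-0.22 to 0.12) and of LGALS3 with CX3CR1 (-0.07 to 0.11). The causes were not tested. No sign turned at PP1 against PreP or PP2 against PP1 for any member under the alternatives run. The members had at least 25 reads in every library, and the effect of depth on their values was not tested.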
